A study of Ovis aries with 6 samples.

Results

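The 8 genes described here, TAGLN, ACTA2, ACTG2, MYH11, DES, MUSTN1, CNN1 and MYL9, are genes of smooth muscle, most of them parts or regulators of its contractile apparatus. They were chosen by name and by their measured levels, which were highest in the library C4, so these levels are a description and carry no test. All 8 were found among the 26067 features of the deposited tables, of which 21457 have a gene name. The tables cover 6 sheep (Ovis aries) libraries, C1 to C6, all labelled as pituitary, made from full-length complementary DNA and read on Oxford Nanopore devices. The study's design names 3 small-tailed Han sheep, its high-reproduction breed, and 3 Wadi sheep, its low-reproduction breed, all healthy, with no treatment, time or age in the labels. The labels put no library in a breed, so breeds were not compared and each library stands alone, with no replicates.

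Smooth muscle shortens when actin filaments slide along myosin filaments. Calcium bound to calmodulin activates myosin light chain kinase, which phosphorylates the regulatory light chain and starts the cycle, and a phosphatase reverses it. Serum response factor with its partner myocardin switches many of these genes on through a promoter element called the CArG box. In the pituitary such cells are known mainly from the walls of blood vessels. In bulk tissue, fewer cells of a type and less RNA per cell cannot be told apart.

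The libraries held 1981644 to 2732911 gene counts, so 1 count was worth 0.366 to 0.505 CPM, the usual scale of counts relative to a library's total gene count. Intervals below are at 95%, cover counting error alone and treat each count as independent. The DNA was amplified and no molecular identifiers are named, so several reads may stem from 1 molecule. The intervals may therefore be too narrow. The tissue label was checked against 7 pituitary hormone genes. These took 14.2, 30.0 and 4.71% of the counts in C4, C5 and C6, but at most 0.0139% in C1, C2 and C3, where PRL, which encodes prolactin, did not exceed 99.9 CPM and POMC, the corticotropin precursor, did not exceed 0.757 CPM. In those 3 libraries all 7 listed cerebellar neuron markers exceeded 10 CPM, with CBLN1 at 1394 to 1701 CPM and NEUROD1 at 581 to 880.4 CPM, against 0, 1 and 1 of 7 in C4, C5 and C6. C1, C2 and C3 therefore go against their tissue label, and where counts and medians of other gene lists are given below, they are also given against C5 and C6 alone.

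The actin filament of smooth muscle is built from its own actins. ACTA2, which encodes the alpha actin typical of vessel walls, was at 33.4 CPM in C1, 37.3 in C2, 97.6 in C3, 2506 in C4, 12.0 in C5 and 74.7 in C6. ACTG2, the gamma actin best known from the gut and other hollow organs, was at 4.29, 1.46, 14.0, 438, 0 and 10.6 CPM in the same order. C4 stood far above the other libraries for both genes, and C5 was the lowest. The 0 counts of ACTG2 in C5 allow a level of up to 1.24 CPM, taken as 3 counts. ACTA2 in C4 was 25.7 times (interval 22.7 to 29.2) the next library, C3, and ACTG2 31.3 times (22.5 to 44.7). Within each library ACTG2 had 0.128 (interval 0.0592 to 0.249) counts per ACTA2 count in C1, 0.0392 (0.0105 to 0.104) in C2, 0.143 (0.0987 to 0.203) in C3, 0.175 (0.163 to 0.187) in C4, 0 (up to 0.136) in C5 and 0.142 (0.0853 to 0.225) in C6. The interval of C4 overlapped those of C1, C3 and C6 and lay above those of C2 and C5. The sequences of these genes are alike, and reads that fit more than 1 of them may have been split, so the balance between actins is uncertain.

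TAGLN and CNN1 encode actin-binding proteins, transgelin and calponin 1, both used as markers of differentiated smooth muscle. TAGLN was at 24.9, 35.5, 97.2, 3465, 15.7 and 143 CPM in C1 to C6, the highest CPM of the 8 genes in C4. CNN1, which slows the actin-activated motor of myosin, was at 18.0, 15.7, 34.4, 912, 2.89 and 13.1 CPM. Both were highest in C4 and lowest in C5, but their second library differed. For TAGLN it was C6, which C4 exceeded 24.3 times (interval 21.5 to 27.4). For CNN1 it was C3, which C4 exceeded 26.5 times (21.5 to 33.0), and C6 lay below C1 and C2 in value, with overlapping intervals.

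Of the myosin genes, MYH11, the heavy chain of smooth muscle myosin, had few counts. It had 4, 2, 8, 165, 2 and 3 counts in C1 to C6, or 1.72, 0.732, 3.03, 72.2, 0.827 and 1.51 CPM. Outside C4 its intervals overlapped, so no order among those 5 libraries can be read, and the ratio of C4 to C3 of 23.9 has a wide interval (11.8 to 56.2). MYL9, the regulatory light chain that the kinase phosphorylates, was at 16.7, 20.9, 50.3, 2027, 8.27 and 210 CPM. It had the smallest excess of C4 of the 8 genes, 9.65 times C6 (interval 8.73 to 10.7), and C6 itself was 4.17 times (3.42 to 5.11) the third library, C3.

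DES encodes desmin, the intermediate filament of muscle cells, including those of vessels and of striated muscle. It was at 10.7, 6.22, 28.0, 621, 1.65 and 8.07 CPM, with C4 at 22.2 times C3 (interval 17.5 to 28.4). MUSTN1 encodes a small protein known from developing and regenerating muscle and skeleton. It was at 2.57, 2.56, 9.84, 479, 0.413 and 19.7 CPM, with 1 count in C5, and C4 was 24.3 times C6 (17.7 to 34.4). Both genes again had their peak in C4 and their lowest value in C5. Since DES is also a gene of striated muscle, markers of that tissue were looked up. None of 14 skeletal muscle markers in the tables reached 60 summed counts, and 6 of them, MYH1, MYH2, CKM, TNNT3, TNNI2 and MYOT, were at 0 in every library. Their summed level was 4.76 to 13.1 CPM, with the highest value in C4, and that of 5 cardiac markers was 0.438 CPM in C4 and 2.48 to 9.59 CPM elsewhere.

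**Figure D1:**
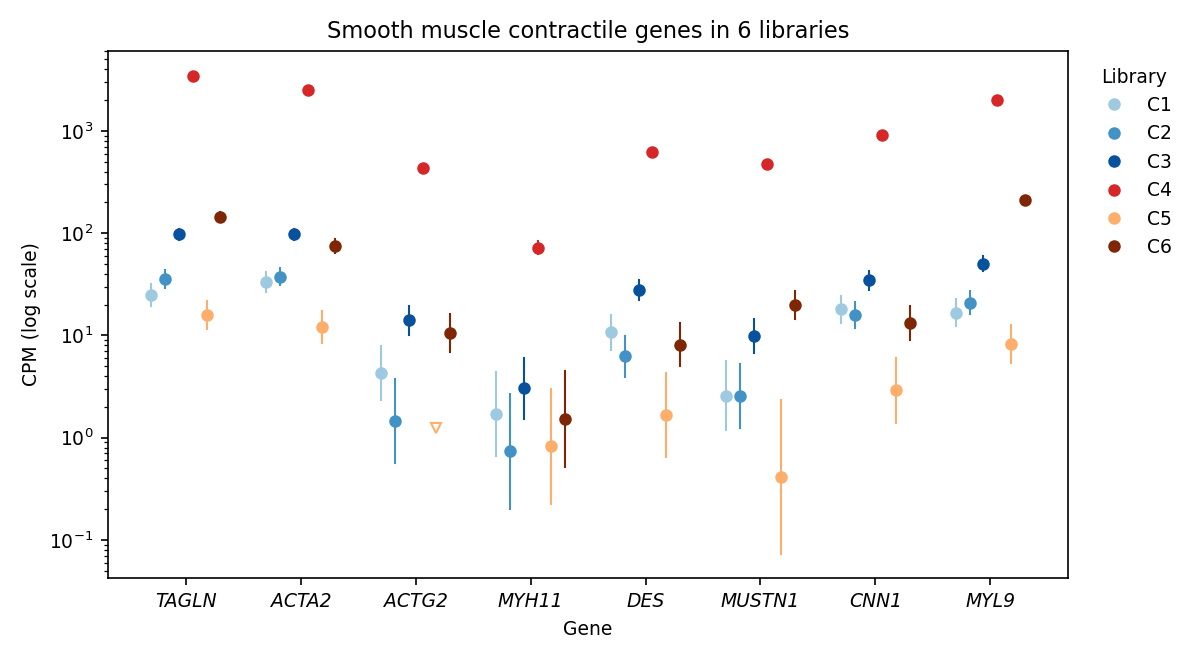
Level of each of the 8 genes (x axis) in each library, in CPM on a log scale (y axis). Points are single libraries and vertical lines are 95% Wilson intervals. The open triangle is a stand-in of 3 counts, 1.24 CPM, for ACTG2 in C5, where it had 0 counts. C4 is the highest point for every gene, between 72.2 CPM for MYH11 and 3465 CPM for TAGLN.

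Together the 8 genes took 24033 of the counts of C4, or 1.05%, a level of 10519.6 CPM (interval 10388 to 10653). Their summed level was 112 CPM in C1, 120 in C2, 335 in C3, 41.7 in C5 and 480 in C6. All 8 had their highest level in C4, where 15.0% of the 13248 features with at least 60 summed counts had theirs. All 8 were also at least 2 times as high in C4 as in each other library, as were 2.72% of those features, and, with C5 and C6 as the only other libraries, 8 were against 5.48%. The genes were chosen for this pattern, so these shares show only how common it is. The median ratio of C4 to the highest other library was 24.3 over the 8 genes and 0.555 over all features. Among 10133 features with a name, ranked by that ratio, 7 of the genes stood between rank 7 (ACTG2) and rank 17 (DES), and MYL9 was at rank 48.

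**Figure D2:**
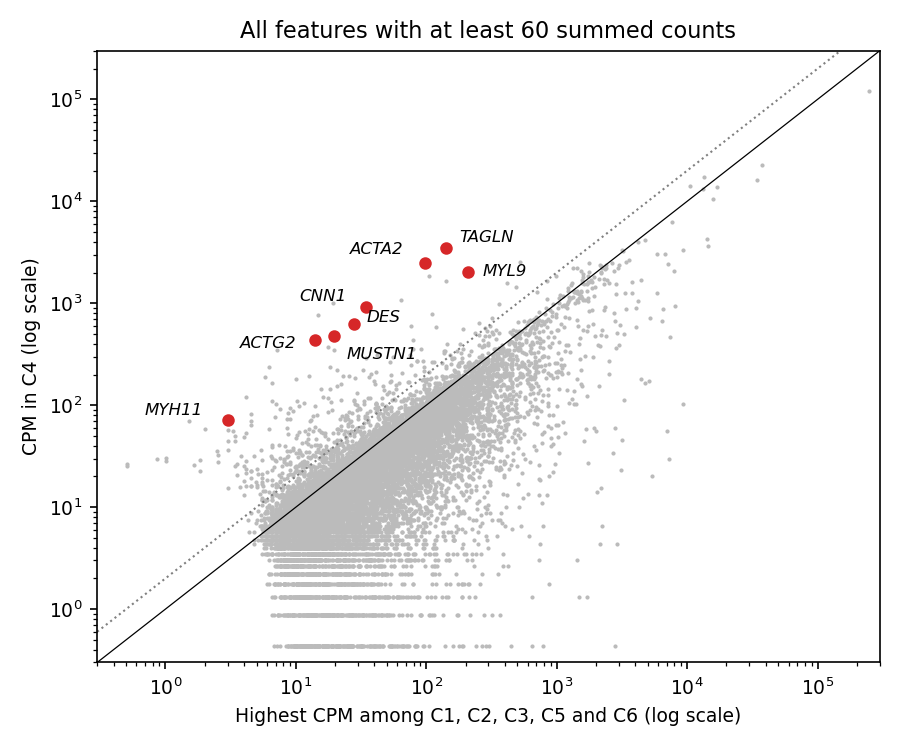
CPM in C4 (y axis) against the highest CPM among the other 5 libraries (x axis), both on log scales, for the 12926 of 13248 features with at least 60 summed counts that had a count in C4. The solid line marks equal levels and the dotted line a ratio of 2; the 8 genes, in red, lie above both, at ratios of 9.65 to 31.3.

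On the TPM scale the authors divided by a length, which changes the order of the genes. Whether TPM or counts rank genes better with these full-length reads was not tested. In C4 TAGLN was at 1491 TPM, ACTA2 at 867, MYL9 at 782, MUSTN1 at 633, CNN1 at 298, ACTG2 at 158, DES at 116 and MYH11 at 40.0. By counts MUSTN1 was below DES and CNN1. The length behind the TPM, taken as counts per TPM relative to TAGLN in the same library, was 0.326 for MUSTN1 and 2.31 for DES in every library. For MYH11 it ran from 0.209 to 1.43 and for CNN1 from 0.761 to 1.32, so TPM values of these 2 genes also move with the length used in each library. The ratio of C4 to the highest other library in TPM was 11.8 for MYH11 and MYL9, and 29.8 to 50.6 for the other 6 genes. From CPM to TPM the median feature moved by -0.950 (log2) in C4, -1.31 in C6 and -2.01 to -1.72 in C1 to C3. TPM ratios of C4 to those libraries therefore hold a shift that is not particular to these genes.

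Outside C4 the genes also followed an order. Of C1, C2 and C3, C3 was the highest for all 8, at a median of 2.96 times C1 and 3.29 times C2. The interval of the ratio lay above 1 for 7 of 8 genes against C1 and for 7 of 8 against C2, with MYH11 the exception in both. C2 and C1 were closer, with a median ratio of 0.935 and an interval above 1 for 1 gene, TAGLN (1.43, interval 1.02 to 2.01). C6 exceeded C5 with an interval above 1 for 7 of 8 genes, MYH11 again excepted, by 4.54 times for CNN1 (1.92 to 12.4), 9.09 times for TAGLN (6.47 to 13.1) and 25.4 times for MYL9 (16.2 to 42.0). C3 and C6 changed places between genes. ACTA2, DES and CNN1 were higher in C3, at 1.31, 3.47 and 2.62 times C6, and TAGLN, MUSTN1 and MYL9 were higher in C6, each with an interval on 1 side of 1.

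The mix of the 8 genes was compared within each library, as a share of their summed counts, which does not depend on how much of them a library holds. In C1 to C6, TAGLN took 22.1, 29.5, 29.1, 32.9, 37.6 and 29.7%, and ACTA2 took 29.8, 31.0, 29.2, 23.8, 28.7 and 15.5%. MYL9 took 14.9, 17.3, 15.0, 19.3, 19.8 and 43.7%. In C6 the light chain was thus the most counted of the 8 genes, at 1.47 counts per TAGLN count (interval 1.26 to 1.72), whereas in C4 it had 0.585 (0.564 to 0.606) and in C1, C2, C3 and C5 between 0.518 and 0.672. CNN1 took 16.0, 13.1, 10.3, 8.67, 6.93 and 2.73%, and DES 9.54, 5.17, 8.37, 5.90, 3.96 and 1.68%. Both had their smallest share in C6, where DES had 0.0565 counts per TAGLN count (0.0319 to 0.0934) against 0.179 in C4 (0.169 to 0.190). MUSTN1 took 4.55% in C4 and 4.10% in C6, against 0.990 to 2.94% in the other libraries. Its interval in C6 (3.01 to 5.55%) overlapped those of all other libraries. In C4 the interval (4.30 to 4.82%) lay above that of C3 alone (2.01 to 4.27%). The counts of C5, 101 in all, leave its shares with wide intervals, such as 28.8 to 47.4% for TAGLN. Per length, in TPM, TAGLN took 34.0% of the 8 genes in C4 and MYL9 39.2% in C6.

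**Figure D3:**
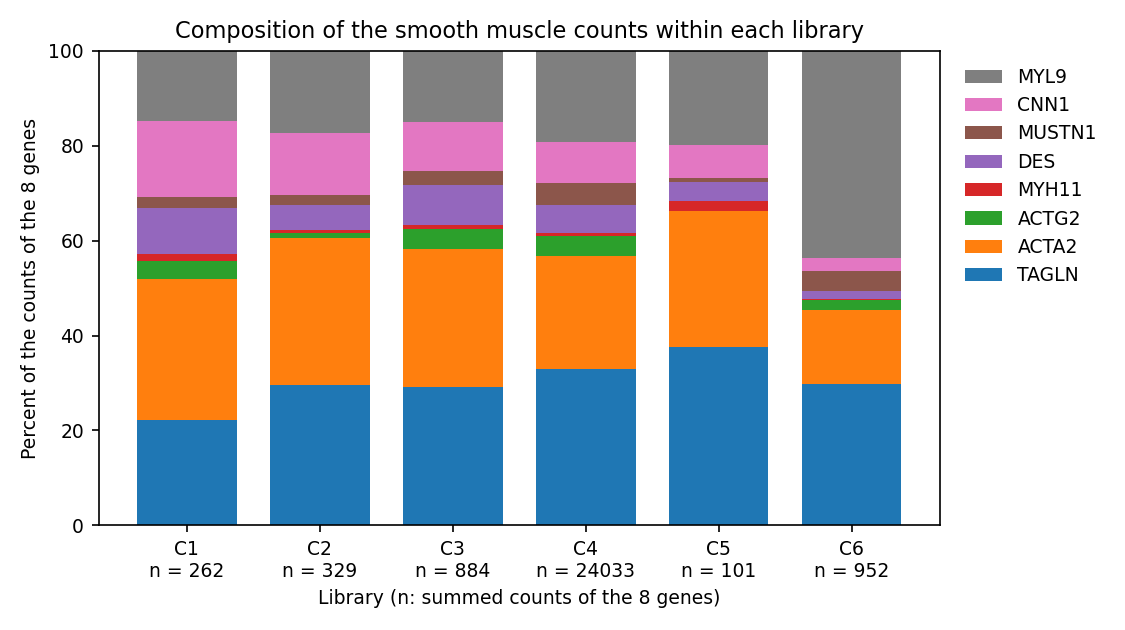
Share of each of the 8 genes in their summed counts (y axis, percent) within each library (x axis, with the summed counts below the name). MYL9 fills 43.7% of the bar of C6 and 14.9 to 19.8% of the others.

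Most of the 8 genes have relatives that other cells use, so the balance within each gene family was taken, from counts and, per length, from TPM. ACTA2 and ACTG2 together made up 48.3% of the TPM of 6 actin genes in C4 and 38.3% of their counts (interval 37.6 to 39.0%). Elsewhere they made up 0.557 to 4.93% of the actin counts, most in C3. The cytoplasmic actins ACTB and ACTG1 were at 638 to 1768 and 1325 to 1419 CPM outside C4, and at 2490.2 and 2243 CPM in C4, 1.41 and 1.58 times their next library. In C4 ACTA2 and ACTB had 5725 and 5689 counts, a difference within counting error. ACTA1, the skeletal muscle actin, did not exceed 15.4 CPM and ACTC1, the cardiac actin, 2.56 CPM, both with their highest level outside C4.

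TAGLN made up 97.4% of the counts of the 3 transgelins in C4 (97.0 to 97.7%) and 68.5% in C6 (63.9 to 72.8%), against 6.08 to 15.6% in C1, C2, C3 and C5. TAGLN3, the neuronal relative, was at 380, 369, 525, 77.9, 112 and 48.4 CPM in C1 to C6. The low TAGLN share in C1, C2 and C3 therefore went with a high TAGLN3 level. TAGLN2, the form of many other cells, was at most 17.2 CPM. CNN1 made up 84.7% of the calponin counts in C4 (83.2 to 86.1%), 20.6 to 36.3% in C1 to C3, and 2.41 and 3.96% in C5 and C6. CNN3, the widespread acidic form, was highest in C6 at 301 CPM, against 127 CPM in C4. CNN2 was at 37.2 CPM in C4 and at most 17.2 CPM elsewhere, a ratio of 2.17 (1.44 to 3.33), which fell below 2 under TMM or DESeq2 scaling and with the hormone genes left out of the totals.

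MYH11 made up 52.2% of the counts of 4 myosin heavy chains in C4 (46.7 to 57.7%) and 51.8% of their TPM, against 0.587 to 4.11% of the counts elsewhere. Of the other 3, MYH10, a nonmuscle chain common in neurons, was at 149, 124, 98.0, 47.7, 25.6 and 15.6 CPM. MYH9, a widespread nonmuscle chain, was at 1.29, 0.366, 0.757, 18.4, 11.2 and 18.2 CPM, and MYH14 had at most 3 counts. The heavy chains were few in all libraries, at 73 to 356 counts together, and whether transcript length limited them was not tested. The nearest relatives of MYL9, MYL12A and MYL12B, were not found under those symbols among the features with measurements. VIM, the intermediate filament gene of many mesenchymal cells beside DES, was at 2219 CPM in C4 and 1325 CPM in C6, and at 55.7 to 157 CPM in the other libraries.

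**Figure D4:**
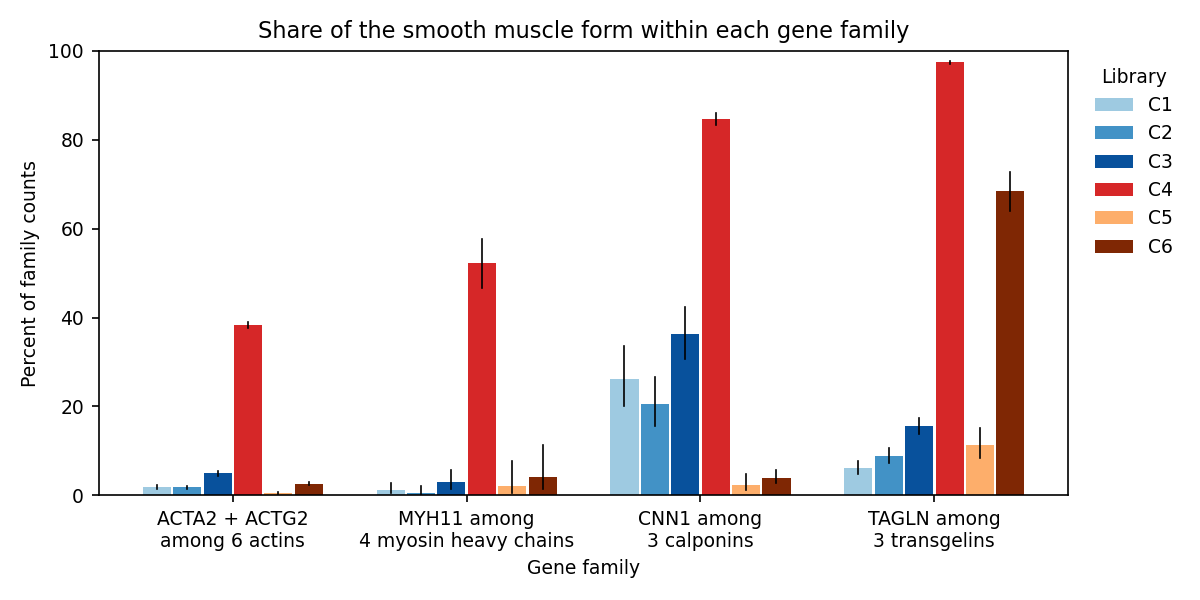
Share of the smooth muscle gene in the counts of its family (y axis, percent), for 4 families (x axis) and 6 libraries. Lines are 95% Wilson intervals. C4 is highest in each family, from 38.3% for the actins to 97.4% for transgelin, where C6 stands second at 68.5%.

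Next, 30 other genes of the smooth muscle contractile apparatus were looked up, a list drawn up with earlier results of these data known. The 26 measured members of that list are those with at least 60 summed counts. That sum includes C4, so some genes of this and later lists passed it only through their counts in C4. Of the 26, 24 had their highest CPM in C4, against 15.0% of all features. At least 2 times as high there as in each other library were 17, against 2.72% of all features. The median ratio was 3.21, against 0.555 over all features. With C5 and C6 as the only others, 20 were at least 2 times as high, against 5.48% of all features. The median ratio was then 3.56, against 0.867 over all features. TPM2, which encodes the beta tropomyosin that lies along the actin filament, was at 10.3, 8.42, 19.3, 1008, 1.65 and 17.2 CPM, 52.2 times its next library (39.6 to 70.3), a larger ratio than any of the 8 genes had. AOC3, a vascular amine oxidase on the surface of smooth muscle and fat cells, was at 81.4 CPM in C4 and at most 4.55 CPM elsewhere. MYL6, the essential light chain also used by nonmuscle myosin, reached 1452 CPM in C4 against 308 to 488 CPM elsewhere. CSRP1, a protein of the actin cytoskeleton, reached 1136 CPM in C4 against 656 to 1049 CPM elsewhere, by CPM the smallest excess of the 24. In TPM it was at 90.7 in C4 and at most 35.5 elsewhere.

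Further members of that list, named after their values were seen, show its spread. MYLK, the kinase of the regulatory light chain, was at 194 CPM in C4, 25.7 CPM in C6 and at most 7.95 CPM elsewhere. KCNMB1, the smooth muscle subunit of a calcium-activated potassium channel, was at 105 CPM in C4 and at most 11.6 CPM elsewhere. PPP1R14A, which inhibits the light chain phosphatase, stood at 325 CPM in C4 and 136 CPM in C6, the 2 libraries in which MYL9 was also highest. CALD1, the caldesmon gene, was at 473 CPM in C4 and 300.2 CPM in C1. SMTN, the smoothelin gene, had its peak outside C4, at 16.7 CPM in C6 against 10.1 CPM in C4, with 60 summed counts. LMOD1, an actin nucleator, was 10.7 times as high in C4 as in C3 by CPM, but in TPM it was at 31.9 in C4 and 68.9 in C2. By TPM 20 of the 26 were highest in C4, and CALD1, LMOD1, SYNM and VCL were not, although they were by CPM. No share of all features highest in C4 by TPM was taken.

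Genes that signal to the contractile apparatus had smaller ratios. Of 19 measured members, 11 were highest in C4 (15.0% of all features) and 3 at least 2 times as high there as in each other library (2.72% of all features), with a median ratio of 1.09 against 0.555 over all features. With C5 and C6 as the only others, 6 passed (5.48% of all features), with a median of 1.65 against 0.867. EDNRA, the endothelin receptor of vessel walls, was at 22.8 CPM in C4 and at most 4.54 CPM elsewhere, 5.01 times (2.45 to 11.6). PPP1R12B, a targeting subunit of the light chain phosphatase, was at 102 CPM in C4 and at most 29.6 CPM elsewhere. The calmodulin gene CALM3, used in all cells, was highest in C3, at 407 CPM, and at 201 CPM in C4.

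Of 13 measured transcription regulators of smooth muscle, 5 were highest in C4 and 3 passed the 2-fold rule, against 15.0 and 2.72% of all features, with a median ratio of 0.802. Against C5 and C6 alone the median was 1.67, on the other side of 1, and 5 passed, against 5.48% of all features. MYOCD, which encodes myocardin, was at 3.43, 2.20, 3.03, 45.1, 0.827 and 3.03 CPM, 13.1 times its next library (6.43 to 31.3). TGFB1I1, a coactivator at focal adhesions, was at 25.4 CPM in C4 and at most 4.04 CPM elsewhere. SRF, the partner of myocardin, was at 178, 182, 119, 62.2, 27.7 and 14.1 CPM, and MEF2A, a muscle and neuron factor, at 801, 643, 538, 221, 158 and 192 CPM. Each of C1, C2 and C3 thus exceeded C4 for both, and C4 exceeded C5 and C6.

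Markers of other cells of the vessel wall and its surroundings moved in part with the 8 genes, and their part in the result was not tested. Of 5 measured pericyte markers, all were highest in C4 and 3 passed the 2-fold rule, against 15.0 and 2.72% of all features, with a median ratio of 2.55. Against C5 and C6 alone the count and the median were the same, beside 5.48% of all features. The list of 10 found in the tables summed to 1316 CPM in C4 against 45.0 to 117 CPM elsewhere. RGS5, a signalling regulator of pericytes and arterial smooth muscle, was at 1075 CPM in C4 and at most 63.6 CPM elsewhere, and MCAM, an adhesion gene of mural and endothelial cells, at 179 CPM and at most 10.1 CPM. KCNJ8, a potassium channel gene of pericytes, was at 12.7 CPM in C4 and 12.6 CPM in C6. PDGFRB, also on the pericyte list, had 19 summed counts, NOTCH3 had 1, and HIGD1B was at 0 in C4. Whether transcript length limited such low counts was not tested.

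Of 8 measured fibroblast markers, by CPM 4 were highest in C4 and 4 in C6, and 2 passed the 2-fold rule, also against C5 and C6 alone, with a median ratio of 1.31 in both. By TPM 7 of the 8 were highest in C4 and 4 passed. Of all features 15.0% were highest in C4 by CPM, and 2.72% passed, or 5.48% against C5 and C6 alone. By TPM 4.06% of all features passed, and the share of all features highest in C4 by TPM was not taken. The list of 12 summed to 1574 CPM in C4, 1167 CPM in C6 and 108 to 235 CPM in the other libraries. COL1A2, a collagen chain, was at 538 CPM in C4 and 294 CPM in C6, and COL3A1 at 270.1 and 85.3 CPM. DCN, the gene of the matrix protein decorin, was at 481 CPM in C6 and 380.4 CPM in C4, but in TPM at 109.7 and 110.9. MFAP5, a microfibril gene, was at 56.0 CPM in C4 and 13.6 CPM in C6. The fibroblast sum of C6 was thus nearest to that of C4, whereas the 8 genes together were 21.9 times as high in C4 as in C6.

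Of 7 measured endothelial markers, 3 were highest in C4 and 2 passed the 2-fold rule, against 15.0 and 2.72% of all features, with a median ratio of 0.326. Against C5 and C6 alone the median was 1.46, on the other side of 1, and 3 passed, against 5.48% of all features. The list of 11 found in the tables summed to 237 CPM in C4, 36.8 CPM in C5 and 123 to 211 CPM elsewhere. The adhesion gene PECAM1 and EMCN, a mucin of capillaries and veins, reached 40.7 and 39.8 CPM in C4 against at most 7.44 and 13.1 CPM elsewhere. FLT1, a receptor for vascular endothelial growth factor, and TIE1, an endothelial receptor kinase, were highest in C2 and C3, at 109 and 41.6 CPM. FLT1 was also lower in C4 than in C6, at 24.1 against 60.6 CPM, as were CLDN5 (7.88 against 33.8) and KDR (6.57 against 22.2). TIE1 was higher in C4, at 13.6 against 5.05 CPM in C6. CDH5, which defines endothelium, did not exceed 3.53 CPM.

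Immediate early genes, which respond to stimulation and to handling of tissue and several of which serum response factor also switches on, moved with C4 as well. All 8 listed were highest there and 6 passed the 2-fold rule, against 15.0 and 2.72% of all features, with a median ratio of 5.29. Against C5 and C6 alone 7 passed, against 5.48% of all features, with a median of 5.69. Their sum was 3966 CPM in C4 against 409 to 572 CPM elsewhere. FOS was at 1864 CPM in C4 and at most 105 CPM elsewhere, and ATF3, a stress-responsive factor, at 235 and at most 6.20 CPM. IER2 and KLF6 were at 237 and 249.5 CPM in C4, 1.20 and 1.43 times their next libraries. Their part in the levels of the 8 genes was not tested.

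**Figure D5:**
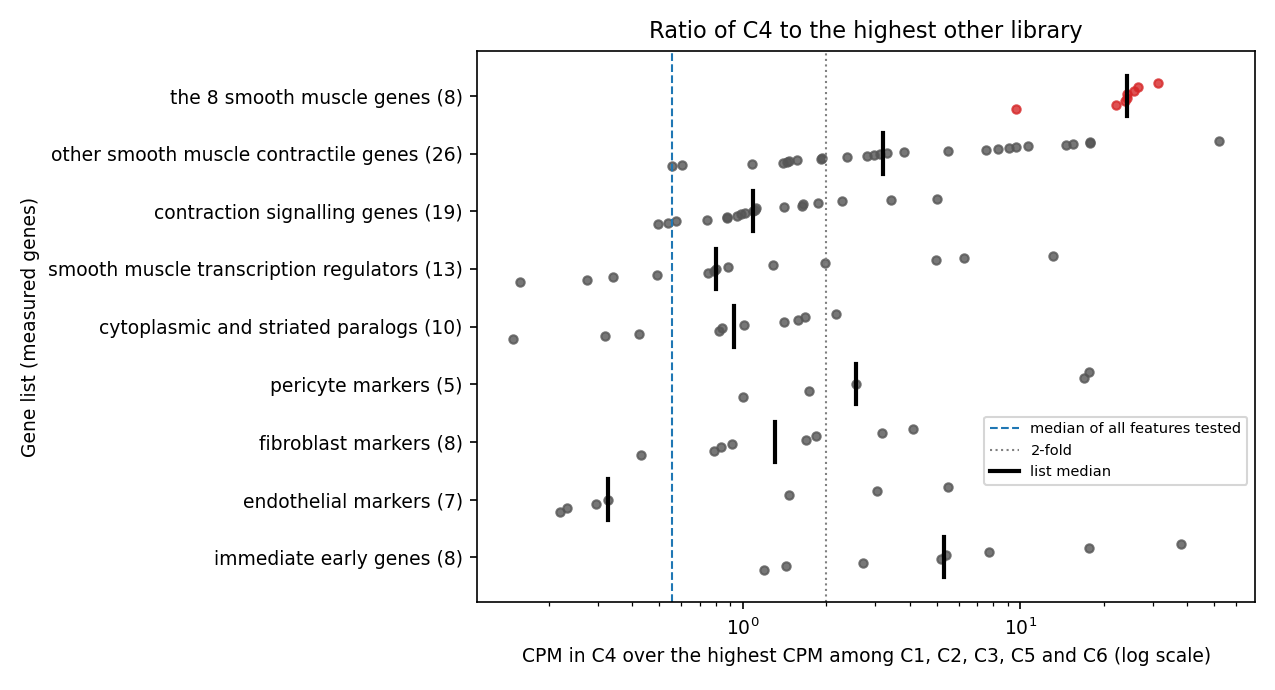
Ratio of the CPM in C4 to the highest CPM among the other 5 libraries (x axis, log scale) for the measured genes of each list (y axis, number of genes in brackets). Each point is a gene, black bars are list medians, the dashed line is the median of all 13248 features, at 0.555, and the dotted line is 2-fold. The 8 genes lie between 9.65 and 31.3, and the other contractile genes reach up to 52.2.

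To name the features most like the 8 genes over the 6 libraries, each feature's CPM values were divided by their sum, and the distance was the summed absolute difference from the mean profile of the 8, scaled to run from 0 for the same to 1 for disjoint profiles. In that mean profile C4 held 91.2%, C6 3.25%, C3 3.07%, C1 1.19%, C2 0.926% and C5 0.357%. Over 6860 named features with at least 200 summed counts (and MYH11, which had 184), the median distance was 0.758, and the 8 genes themselves lay at 0.00989 (ACTA2) to 0.0575 (MYL9), being part of the mean. The nearest others were WFDC1 at 0.0289, SYNPO2 at 0.0297, LOC101106925 at 0.0309, PLN at 0.0322, TPM2 at 0.0345, MCAM at 0.0349, CCN2 at 0.0360, RRAD at 0.0365, SFRP4 at 0.0413 and LOC101123341 at 0.0439. SYNPO2, PLN, TPM2 and MCAM are also on the lists above.

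WFDC1, a secreted protease inhibitor family gene, was at 3.43, 3.29, 7.19, 347, 1.65 and 6.56 CPM. SYNPO2, an actin-bundling protein of muscle, was at 3.86, 5.12, 11.7, 351, 4.96 and 19.7 CPM, with the same 2 libraries, C6 and C3, behind C4. PLN encodes phospholamban, which restrains the calcium pump of the sarcoplasmic reticulum, and stood at 0.429, 1.46, 2.65, 103, 0.413 and 7.06 CPM. CCN2, a matrix-associated growth regulator, was at 121 CPM in C4 and at most 4.13 CPM elsewhere, RRAD, a small GTPase of muscle, at 165 and at most 6.56 CPM, and SFRP4, a secreted Wnt modulator, at 188 and at most 5.79 CPM. LOC101106925 is MGP in the RefSeq gene table, found by its gene ID, and encodes matrix Gla protein, which restrains calcification of vessel walls and cartilage. It was at 18.0, 24.2, 63.6, 3594, 133 and 133 CPM, in C4 above each of the 8 genes. LOC101123341, named SH3BGR in that table, was at 370.3 CPM in C4 and at most 17.8 CPM elsewhere. The profiles share libraries and depth, and C4 alone fixes most of the distance.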

How the data were processed

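RNA of 6 sheep samples, all labelled as pituitary (a label that the hormone genes go against in C1 to C3), was made into amplified full-length complementary DNA with Nanopore kits, per the labels' protocols. Per the submitters' processing notes the aligner was minimap2 2.17-r941. For the quantifier, genome build, annotation and strand handling, the answer is not given in the sources used here. Coordinates were not used. The authors deposited estimated counts per gene, not normalized, of which 24.0 to 29.8% per library were not whole, 19 of the 48 values of the 8 genes among them, and the authors' TPM, scaled by lengths the tables do not give. The labels give no batch.

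Rows without measurements, 4 per table, were dropped, gene prefixes were removed, and estimated counts were rounded to whole numbers. CPM is the rounded count over the library total. Intervals are at 95%, by Wilson's method for a level or share and by the exact conditional method (Clopper-Pearson) for a ratio. For ranks and for medians over lists and all features, levels below 3 counts were raised to 3 counts. Calls and ratios between pairs of libraries used the counts as they were, 0 included. With no library assigned to a breed, a feature was called where C4 was at least 2 times each other library, among features with at least 60 summed counts, and no p-value was computed. The summed counts include C4, so a feature, MYH11 among them, can reach this minimum only through C4. Shares over all features rest on the same minimum. Named were the 8 genes, their paralogs, up to 4 genes of each list (2 by median CPM, 2 by ratio; some of these are not reported here) and the 10 most alike. Genes outside this rule were named after their values were seen, among them CDH5, CLDN5, KDR, PDGFRB, NOTCH3 and HIGD1B. The 8 genes and all lists were chosen with earlier results of these data known. Of the 8 symbols, 8 were found in a RefSeq gene table of the assembly ARS-UI_Ramb_v3.0, which served only to name genes. The planned comparison of protein and promoter sequences was not run. Versions were Python 3.11.15, pandas 2.3.3, SciPy 1.17.1, R 4.3.3, edgeR 4.0.16 and DESeq2 1.42.0, the last 2 for scaling factors alone.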

Additional observations from a re-analysis of the deposited data

How the results depend on the processing

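All 8 genes were highest in C4, and at least 2 times as high there as in each other library, under CPM, the authors' TPM, TMM scaling, DESeq2 scaling and totals without the hormone genes. The median of their ratios of C4 to the next library was 24.3, and 34.7 in TPM and 37.4 with C5 and C6 as the only other libraries. Their summed CPM in C4 was 10519.6, and 10192.7 with TMM factors and 12262 with the hormone genes left out of the totals. These totals moved the median feature by 0.51 (log2) in C5 and 0.22 in C4, TMM by 0.21 in C5, and DESeq2 scaling by 0.31 in C5. TPM moved it most, by -2.01, -1.91, -1.72, -0.950, -0.893 and -1.31 in C1 to C6. The 360 features called became 633 and 188 at minimum summed counts of 10 and 200, 209 and 109 at folds of 3 and 5, and 726 with C5 and C6 alone, and with 1 library left out at a time they ran from 365 to 727, the highest values being 727 without C5 and 722 without C6. MYH11, with 184 counts, missed the minimum of 200. Among the lists, called paralogs went from 1 to 2 in TPM and to 0 with TMM factors, with DESeq2 factors and without hormone genes in the totals. In TPM, signalling genes went from 3 to 6 and fibroblast markers from 2 to 4. Over all features the calls also rose, from 360 (2.72%) by CPM to 538 (4.06%) in TPM. With C5 and C6 alone, regulators went from 3 to 5 and signalling genes from 3 to 6. By counts in place of TPM, the smooth muscle share in C4 was 38.3 in place of 48.3% for actins and 84.7 in place of 88.5% for calponins, and TAGLN took 32.9 in place of 34.0% of the 8 genes. Of the 10 most alike profiles, 9 were also among the nearest 10 in TPM, and 7 with a minimum of 60 summed counts. The cause of these changes was not tested. No paired analysis was possible because the labels give no groups. Depth limits MYH11, with at most 8 counts outside C4, and all genes in C5, where the 8 had 101 counts in all.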
